A study of Mus musculus with 5 samples.

Results

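The genes described here are the nuclear genes of the mitochondrial respiratory chain and ATP synthase: the subunits of complexes I to V and the electron carrier cytochrome c. They were chosen by a rule on gene symbols that used no measured value, though earlier results of these data were known. Of 18193 genes with a probe set of their own, 82 were members, and 79 of these 82 were bright enough to be measured, among 11075 genes measured in all. Complex I had 32 measured members, complex II 4, complex III 9, complex IV 16 and complex V 17, and the carrier was cytochrome c (Cycs). The 3 members below the intensity filter were Ndufb4 of complex I and the tissue isoforms Cox7b2 and Cox8b of complex IV.

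RNA came from primary chondrocytes, the cells that make cartilage, isolated by enzymatic digestion of rib cages from FVB mouse embryos at gestational day 18.5 and kept in medium with ascorbic acid and beta-glycerophosphate. All 5 groups shared this strain, age and medium and differed only in the time in culture: 2, 6, 9, 12 or 15 days, with 1 Affymetrix array per day. The question was how expression changes over the time in culture. No genotype or drug was compared, and the labels do not say how many embryos were pooled or whether all arrays came from dishes of a common isolate.

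The respiratory chain sits in the inner mitochondrial membrane. Complex I and complex II take electrons from NADH and succinate, complex III passes them to cytochrome c, and complex IV (cytochrome c oxidase) gives them to oxygen, while complex V makes ATP from the proton gradient. Chondrocytes live in tissue without blood vessels and are known for a metabolism that leans on glycolysis, and several complex IV subunits exist as a general form and a form made in particular tissues or at low oxygen.

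Values are probe-set intensities on a linear scale, with each array scaled to a trimmed mean of 500, so a level can be compared between days for a probe set but not between probe sets. Intensities below 73.1 were set to that floor before log2 was taken, and a fold that starts from the floor is written as "at least". The array medians lay between 106.4 and 117.7, and 58.8% to 61.9% of probe sets reached the floor on each array. The ratio of 3' to 5' control signal, a measure of RNA integrity, ran from 1.17 to 1.27 for Actb and from 0.616 to 0.798 for Gapdh. Because each day had 1 array, a difference between days carries no replicate error and no p-value. In a culture of mixed cells, fewer cells of a type and less RNA per cell cannot be told apart.

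All 12 chondrocyte marker genes were measured, so the labelled cell type had its markers on the arrays. Col2a1, the main cartilage collagen, had an intensity of 46505 on day 2, 7510 on day 12 and 17566 on day 15. On day 15, 10 of the 12 markers were at least 2-fold below day 2, and Comp and Matn1 were at least 2-fold above it. Adipocyte markers moved with time as well: 7 of 9 were measured, Lep lay below the filter, and the summed intensity of the 8 with a probe set was 3370, 11951, 57850, 102376 and 53820 on days 2, 6, 9, 12 and 15. Of 14 skeletal muscle markers 10 lay below the filter, among them Myod1, Myog and Ckm, and the summed intensity of all 14 lay between 1497.6 and 2490.5. Of 6 brown fat markers only Prdm16 and Dio2 passed the filter, while Ucp1, Cidea and Elovl3 lay below it. Macrophage markers were dim, with 5 of 8 measured and a summed intensity of all 8 between 652.8 and 1540.9. The part of these other cells in the values below was not tested.

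The respiratory chain transcripts were bright and varied less over the 5 days than most genes. Of the 79 measured members, 74 had a mean intensity in the top 30% of probe sets. The ratio of the highest to the lowest array had a median of 1.43 over the members and of 1.93 over all genes measured. In 68 of 79 members (86.1%) the highest array stayed under 2-fold above the lowest. The shares were 53.4% of all genes and 63.1% of genes in the top 30% of intensity. This top 30% begins at a mean intensity of 344.4, well below that of most members, so it is not matched to them in brightness. The members that varied more were the 5 measured tissue isoforms of complex IV, Cycs, the complex I subunits Ndufv3, Ndufa6 and Ndufb1, and the complex V subunits Atp5e and Atp5md.

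Between day 2 and day 15, 5 of 79 members (6.33%) were at least 2-fold higher, against a background of 16.2% of all genes measured, and 2 (2.53%) were at least 2-fold lower, against 11.6%. The 5 were Cox4i2, Cox6b2, Cox7a1, Ndufv3 and Ndufa6, and the 2 were Ndufb1 and Cycs. At 1.5-fold, 10 members were higher, against a background of 26.5%, and 5 were lower, against 23.8%. By any amount, 50 members were higher on day 15 (background 50.0%) and 29 lower (background 49.7%). The median log2 difference was 0.17 over the members and 0.00 over all genes, and its standard deviation across genes was 0.66 over the members and 1.12 over all genes. The median was 0.21 for complex I, 0.04 for complex II, -0.15 for complex III, 0.20 for complex IV and 0.17 for complex V. Centring each array on its median moved all genes alike: the median of all genes became 0.14 and that of the members 0.31. Under quantile normalization the medians were -0.02 and 0.13, so the members lay above all genes under each of the 3 scalings.

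**Figure D1:**
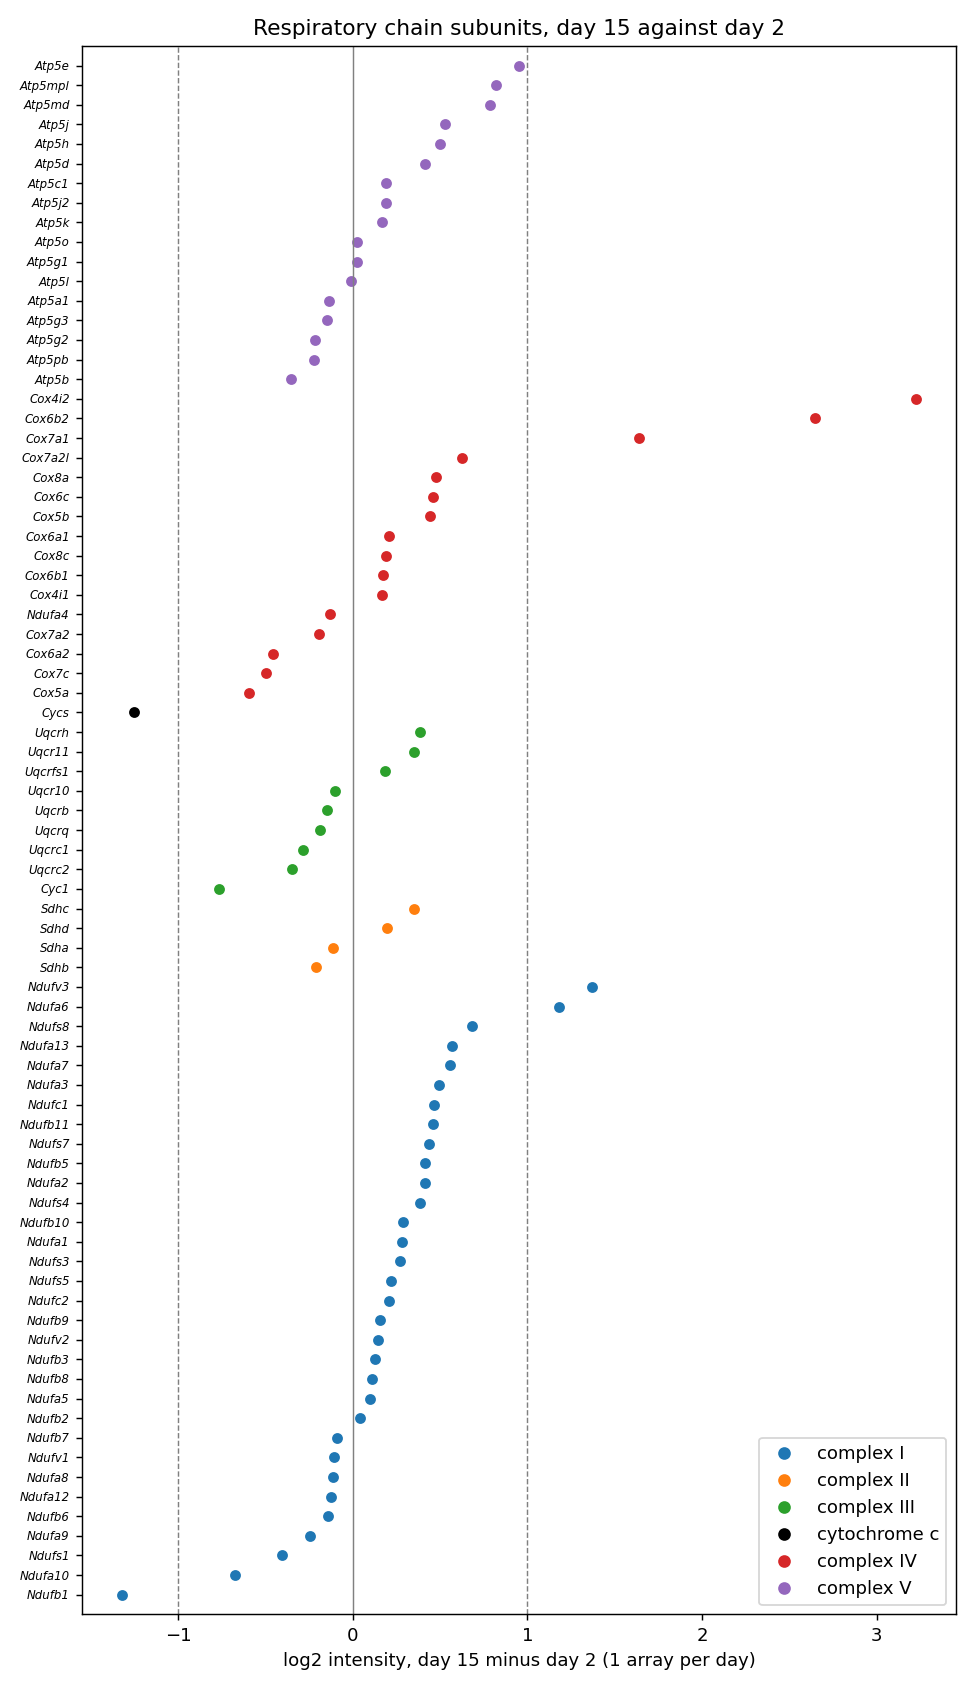
Log2 difference in intensity between day 15 and day 2 for each of the 79 measured members, grouped by complex, with 1 point per gene and dashed lines at 2-fold. Most points lie between the lines, and those outside are 5 higher members, led by Cox4i2, and 2 lower ones, Ndufb1 and Cycs.

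The one test that the 5 arrays allowed was that of a straight line through log2 intensity against day. Over so few arrays a count of 0 does not show that a gene had no trend. With limma and Benjamini-Hochberg adjustment over all 11075 genes, 0 of 79 members passed an adjusted p of 0.05, against a background of 6 rising genes (0.0542%) and 0 falling genes. At an unadjusted p under 0.05, 5 members rose and 2 fell, against backgrounds of 14.4% and 12.7%. The lowest adjusted p among the members was 0.0778, for Ndufb1, followed by Ndufv3 at 0.0975, Cox6b2 at 0.0980, Ndufa6 at 0.102 and Cycs at 0.121.

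Complex I, the NADH dehydrogenase, is built from a catalytic core and many accessory subunits, and 23 of its 32 measured members were higher on day 15 than on day 2, against 50.0% of all genes. The largest differences lay among the accessory subunits, where 2 of 26 were 2-fold higher and 1 was 2-fold lower. Ndufv3, an accessory subunit of the NADH-oxidising module, had intensities of 2179, 3005, 2880, 3611 and 5630 on days 2, 6, 9, 12 and 15. It was lowest on day 2 and highest on day 15, a 2.58-fold difference. Ndufa6, another accessory subunit, had intensities of 2688, 3827, 4200, 4317 and 6101 in the same order of days. Each later day was above the one before it, and day 15 was 2.27-fold above day 2.

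Ndufb1, an accessory subunit of the membrane arm, moved the other way, with 931, 703, 628, 506 and 372. Each day was below the one before it, and day 15 was 2.5-fold below day 2. Of the 6 measured core subunits, most of which carry flavin or iron-sulfur centres, none was 2-fold apart. By its brightest probe set Ndufs8 stood highest in this group, with 7129, 8180, 8762, 8057 and 11454, a 1.61-fold difference between day 15 and day 2. Its other probe sets above the filter were 1.04-fold to 1.33-fold higher, so both the size and this rank depended on the probe set. Ndufs1, the largest core subunit, went from 2254 on day 2 to 1702 on day 15. The core subunits thus did not share a direction.

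Complex II is both the succinate dehydrogenase of the tricarboxylic acid cycle and an entry point of the chain, and its 4 subunits stayed close to their day 2 level. Sdhc, a membrane anchor, had the largest difference, with 3341, 2924, 3752, 3823 and 4259, or 1.28-fold higher on day 15. Sdhb, the iron-sulfur subunit, had 8815, 7378, 7430, 8221 and 7610, or 1.16-fold lower. Sdha, the flavoprotein, went from 5184 to 4785 and Sdhd, the other anchor, from 3753 to 4290. These values are from the brightest probe sets. The second probe set above the filter was 1.01-fold higher for Sdhc, 1.30-fold higher for Sdha and 1.20-fold lower for Sdhd. Rank and direction in this complex thus depended on the probe set.

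Complex III was the complex whose median lay below 0. On day 15, 3 of its 9 measured subunits were higher than on day 2, against 50.0% of all genes. Centring on the array median, which brought the median of all genes to 0.14, brought that of complex III to -0.01. Complex III thus lay below all genes under the deposited scaling and under centring. Its median under quantile normalization is not given here. Cyc1, the cytochrome c1 that hands electrons to cytochrome c, had 7431, 5596, 4545, 5878 and 4359. It was highest on day 2 and lowest on day 15, 1.71-fold apart. Uqcrc2, a core protein, went from 7012 on day 2 to 4536 on day 6 and 5492 on day 15. Uqcrh, the hinge protein that binds cytochrome c1, had 13310, 12146, 14616, 14998 and 17402, or 1.31-fold higher on day 15, so the partners did not share a direction.

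Cycs, the soluble carrier between complexes III and IV, was the member with the largest fold below day 2 after Ndufb1. Its brightest probe set had 25270, 15768, 12744, 14731 and 10577 on days 2, 6, 9, 12 and 15. The day 2 array was the highest and day 15 the lowest, 2.39-fold apart, with most of the difference already there on day 9. Both other Cycs probe sets above the filter showed the same order of day 2 and day 15: 1 had 16234, 8184, 6573, 7865 and 4799, or 3.38-fold lower, and the other had 4572, 3094, 2986, 3674 and 1806, or 2.53-fold lower. Against day 9 in place of day 2, no member was 2-fold lower on day 15, Cycs and Ndufb1 included.

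The promoter of Cycs is shown because it is a textbook target of nuclear respiratory factor 1 and of CREB, and that of Ndufa6 because it holds the same nuclear respiratory factor 1 letters while its intensity went the other way. Both were picked after their values were seen. The sequences are the 250 bases before the start site in RefSeq (GRCm38.p6), 5′ to 3′ on the minus strand, at chr6:50566570-50566819 for Cycs and chr15:82354292-82354541 for Ndufa6. Capitals mark the letters GCATGCGC of the nuclear respiratory factor 1 motif, 60 bases before the start in Cycs and 83 bases before it in Ndufa6, and in Cycs also the letters TGACGTCA of the cyclic AMP response element, 169 bases before the start.
Cycs: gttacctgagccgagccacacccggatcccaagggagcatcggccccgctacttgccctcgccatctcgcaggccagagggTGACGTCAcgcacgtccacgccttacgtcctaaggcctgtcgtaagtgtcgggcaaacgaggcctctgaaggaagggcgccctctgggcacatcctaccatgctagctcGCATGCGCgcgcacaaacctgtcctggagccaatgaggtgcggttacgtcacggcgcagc
Ndufa6: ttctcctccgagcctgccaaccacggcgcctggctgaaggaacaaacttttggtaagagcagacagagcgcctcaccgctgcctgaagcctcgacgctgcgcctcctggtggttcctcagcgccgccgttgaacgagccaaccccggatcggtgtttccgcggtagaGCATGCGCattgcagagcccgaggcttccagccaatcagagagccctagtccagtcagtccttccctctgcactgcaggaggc

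Promoters were in the table for 67 of the 82 member genes, 72 promoters in all, and each motif was searched on both strands of these 250 bases. GCATGCGC was present in 8 of the 72 (11.1%), against 2.26% of all 32851 promoters and 2.93% of the 21263 of protein-coding genes. Besides Cycs and Ndufa6 they were Ndufa8, Sdhb, Cox6a1, Atp5g2, Atp5k and Atp5l. TGACGTCA was present in 4 (5.56%), against 1.55% and 1.92%. The letters CCGGAAG, bound by ETS factors such as GABP, were present in 12 (16.7%), against 6.91% and 8.98%. The short core ACGTG of hypoxia response elements was present in 17 (23.6%), against 16.6% and 17.8%. The hypoxia core can overlap the cyclic AMP response element at an edge, and such matches were counted under both. These shares are descriptions of letters and not of binding.

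Complex IV held the 3 largest differences of any member, and all were tissue isoforms. Of its 5 measured tissue isoforms, 3 were at least 2-fold higher on day 15 than on day 2, against 16.2% of all genes, while of its 11 measured general subunits none was 2-fold apart. The median log2 difference was 1.64 over the tissue isoforms. Cox4i2 and Cox7a1 lay near the floor until day 12, so their folds rest on low starting intensities.

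Cox4i2, the form of subunit 4 known to be made in lung and at low oxygen, had intensities of 100, 187, 75.8, 98.6 and 935. It stayed below 200 through day 12 and was 9.35-fold above day 2 on day 15, a log2 difference of 3.23. Raising the floor to the 60th percentile made it 2.37, and a pseudocount in place of the floor made it 2.54, so its size depended on how low values were treated. Its general counterpart Cox4i1 had 15279, 14473, 15046, 15804 and 17127, a narrow range with day 15 1.12-fold above day 2. The 2 forms therefore differed in course, with the whole of the Cox4i2 difference between the last 2 arrays.

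Cox6b2, the form of subunit 6b known from testis, had 401, 217, 1041, 1172 and 2507. It was lowest on day 6, 4.80-fold higher on day 9 than on day 6, and 6.25-fold above day 2 on day 15. Its general counterpart Cox6b1 had 21851, 18713, 21722, 22981 and 24640, 1.13-fold above day 2. Cox6b2 thus differed from Cox4i2 in that every day after day 6 was above day 2.

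The promoters of this pair are shown because the 2 genes differed in course. They are again the 250 bases before the start, on the minus strand of GRCm38.p6, at chr7:30626115-30626364 for Cox6b1 and chr7:4753095-4753344 for Cox6b2. Capitals mark the ETS letters as CTTCCGG, the reverse complement of CCGGAAG, 28 bases before the start of Cox6b1. None of GCATGCGC, TGACGTCA and CCGGAAG was found in this window of Cox6b2. Most member promoters lacked CCGGAAG as well, as 12 of the 72 held it. Whether these letters bear on the courses was not tested.
Cox6b1: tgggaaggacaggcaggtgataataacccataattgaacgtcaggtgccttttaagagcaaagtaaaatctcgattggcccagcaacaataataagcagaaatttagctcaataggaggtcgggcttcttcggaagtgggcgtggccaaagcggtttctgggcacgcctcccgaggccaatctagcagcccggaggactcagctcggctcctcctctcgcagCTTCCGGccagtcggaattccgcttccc
Cox6b2: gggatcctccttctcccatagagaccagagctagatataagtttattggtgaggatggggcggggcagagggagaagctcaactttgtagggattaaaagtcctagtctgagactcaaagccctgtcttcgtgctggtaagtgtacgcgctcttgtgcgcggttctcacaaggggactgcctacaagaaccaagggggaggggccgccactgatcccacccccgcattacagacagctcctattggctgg

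Cox7a1, the form of subunit 7a known from heart and skeletal muscle and from brown fat, had 142, 113, 31.9, 148 and 442. Day 9 was below the floor, and day 15 was 3.11-fold above day 2. Its general counterpart Cox7a2 had 30451, 21800, 21882, 21289 and 26655, 1.14-fold below day 2. The related Cox7a2l, known for its part in supercomplexes, had 4245, 7342, 6461, 6243 and 6539, with day 2 below every later day. Its other 2 probe sets also had their lowest value on day 2, at 4440 and 2900, and their highest on day 6, at 7081 and 5000.

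The other heart and muscle isoforms did not follow. Cox6a2 had 170, 104, 61.6, 141 and 124, with day 2 the highest and day 9 below the floor, beside 22541 on day 2 and 26063 on day 15 for its general form Cox6a1. Cox8b lay below the filter, with 34.2, 122, 144, 124 and 99.3, while the general Cox8a had 4742, 4457, 5484, 5749 and 6599. Cox8c, a testis form, had 200, 131, 330, 172 and 228, with day 9 the highest. Beside Cox7a1, 1 of the 4 measured muscle markers, the troponin gene Tnnt3, was 2-fold higher on day 15, with 107, 1302, 915, 392 and 317 and its highest value on day 6. The muscle actin gene Acta1 had 436 on day 2 and 546 on day 15, and the desmin gene Des, below the filter, had 17.3 and 269.

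Among the general subunits, Cox5a, which sits on the matrix side, had 19217, 11709, 12001, 12625 and 12692. Day 2 stood apart and the 4 later days lay close together, 1.51-fold lower on day 15. The other 2 Cox5a probe sets were 1.49-fold and 1.98-fold lower. Cox6c had 12689, 12563, 16556, 17101 and 17448, or 1.38-fold higher, while its second probe set went from 5145 to 12919, or 2.51-fold higher, so the size of the Cox6c difference depended on the probe set. Cox7c was represented by a dim probe set with 219, 217, 197, 270 and 155.

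**Figure D2:**
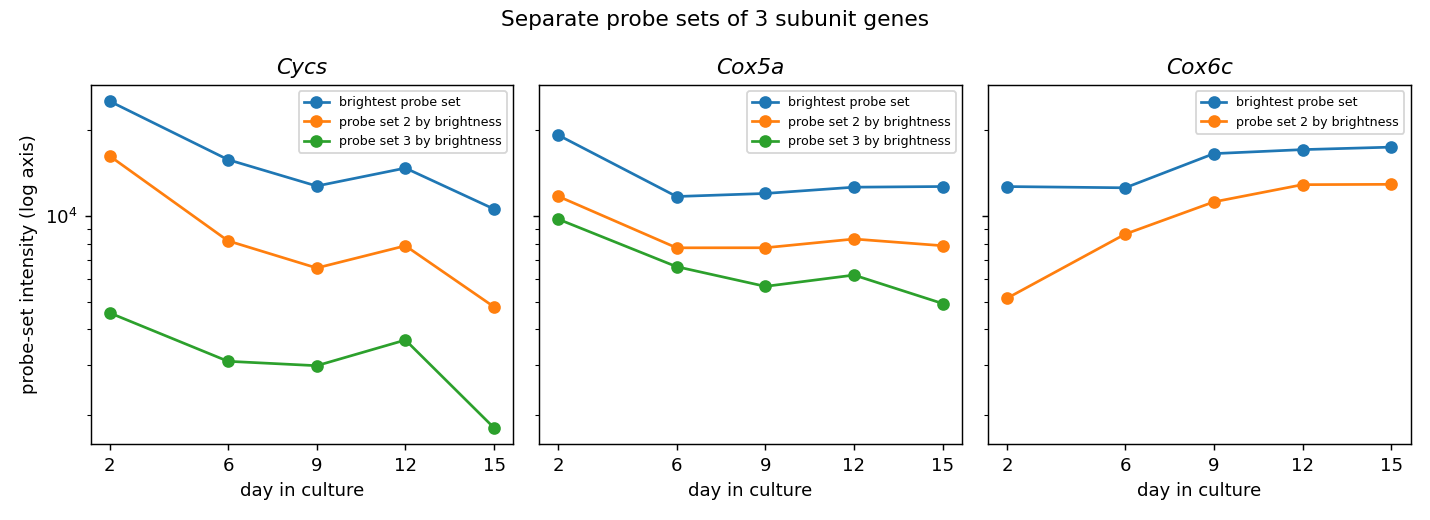
Intensity on days 2, 6, 9, 12 and 15 for each probe set above the filter of Cycs, Cox5a and Cox6c, on a log axis, with 1 line per probe set. The 3 Cycs lines and the 3 Cox5a lines end below their day 2 value, and the 2 Cox6c lines end above it by different amounts.

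Ndufa4, long listed with complex I and now placed in complex IV, had 9387, 12062, 12657, 13593 and 8566. It was highest on day 12 and 1.59-fold lower on day 15, one of 2 members at least 1.5-fold lower at that step, against a background of 12.2%; the other was Cox7c. Its paralogue Ndufa4l2, which is no member and is known to be induced at low oxygen, had 47.9, 75.6, 24.7, 283 and 9013. Ndufa4l2 was therefore 31.9-fold higher on day 15 than on day 12, the step at which Ndufa4 was lower. Whether the 2 are linked was not tested.

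**Figure D3:**
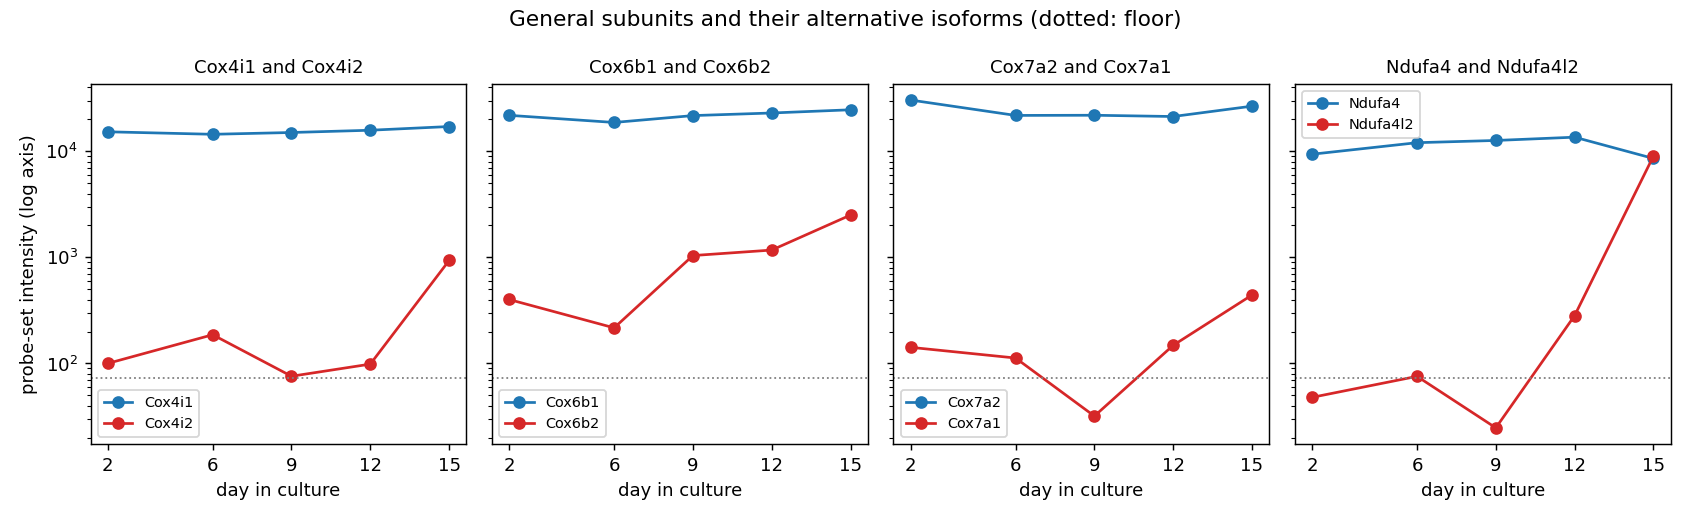
Intensity on days 2, 6, 9, 12 and 15 for 4 pairs of a general subunit and its isoform or paralogue, on a log axis, with the floor of 73.1 as a dotted line. Cox4i2, Cox7a1 and Ndufa4l2 stay low until day 12 and are highest on day 15. Cox6b2 dips on day 6 and lies above its day 2 level from day 9. Cox4i1, Cox6b1 and Cox7a2 run nearly flat. Levels of different probe sets are not comparable.

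Complex V, the ATP synthase, had no member 2-fold apart between day 2 and day 15. At 1.5-fold, 3 of 17 (17.6%) were higher, fewer than the 26.5% of all genes, and none was lower, against 23.8%. The 3 were small subunits. Atp5e, the epsilon subunit of the catalytic head, had 5599, 5095, 7336, 7701 and 10850, 1.94-fold higher and so just under the 2-fold threshold. Atp5mpl, a small membrane subunit, had 6320, 6235, 8070, 9249 and 11158, or 1.77-fold higher. Atp5md, another small membrane subunit that bears on dimer formation, had 6497, 4816, 10780, 10001 and 11183, or 1.72-fold higher. In all 3, days 9 to 15 lay above days 2 and 6.

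The catalytic alpha and beta subunits did not share that course. Atp5b, the beta subunit that makes ATP, had 18651, 14449, 15104, 15504 and 14589, or 1.28-fold lower, and Atp5a1, the alpha subunit, went from 16142 to 14657. Of the 9 measured stalk and membrane subunits, 7 were higher on day 15, against 50.0% of all genes. Their median log2 difference was 0.19, against 0.00 for all genes. Subunit c, the rotor ring, is encoded by a group of genes with the same mature protein. Atp5g1 had 7415, 6274, 5261, 6198 and 7528, Atp5g2 had 12966, 9604, 8459, 8386 and 11159, and Atp5g3 had 23992, 20669, 22341, 23872 and 21603. All 3 were at or within 1.16-fold of their day 2 level on day 15, and Atp5g1 and Atp5g2 dipped on days 6 to 12.

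Read by day, the members did not move evenly. On day 6 against day 2, 59 of 79 were lower (background 47.1%) and 20 higher (background 51.8%), with a median log2 difference of -0.13 against 0.03 for all genes. None was 2-fold apart, against backgrounds of 10.2% higher and 5.7% lower. Quantile normalization of the arrays brought that median to -0.03, against 0.0 for all genes, with 49 lower and 30 higher. The size of the day 6 dip thus depended on the scaling. The sign of the median was kept, but under quantile normalization it lay close to that of all genes. A day 6 dip of the members as a whole was therefore not clear under that scaling. Day 6 was the lowest array for 37 members (46.8%, background 12.7%), or for 22 after quantile normalization and 48 after centring.

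From day 6 to day 9, 50 members were higher (background 48.9%), with a median log2 difference of 0.07. Under quantile normalization 42 were higher (background 46.8%), with a median of 0.025. Under centring 64 were higher (background 62.7%), with a median of 0.215, so the size of this rise depended on the scaling. At this step 3 members were at least 2-fold higher (background 5.87%): Cox6b2, Cox8c at 2.52-fold and Atp5md at 2.24-fold. Cox4i2 was 2.46-fold lower, the 1 member past 2-fold in that direction (background 4.06%). From day 9 to day 12, 61 of 79 were higher (background 48.9%), by a median log2 difference of 0.07, and 59 were so under both other scalings. Only Cox7a1, from the floor, was at least 2.03-fold higher at this step (background 1.72%), and 0 members were 2-fold lower (background 1.51%).

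From day 12 to day 15, 3 members were at least 2-fold higher (3.80%, background 4.23%): Cox4i2 at 9.48-fold, Cox7a1 at 2.98-fold and Cox6b2 at 2.14-fold. None was 2-fold lower (background 3.92%). By any amount 54 were higher (background 48.9%), with a median log2 difference of 0.11, but under quantile normalization 37 were higher and the median was -0.02, so the direction of the members as a whole at this step was not settled. Day 15 was the highest array for 41 members (51.9%, background 22.4%), for 26 after quantile normalization and for 47 after centring.

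**Figure D4:**
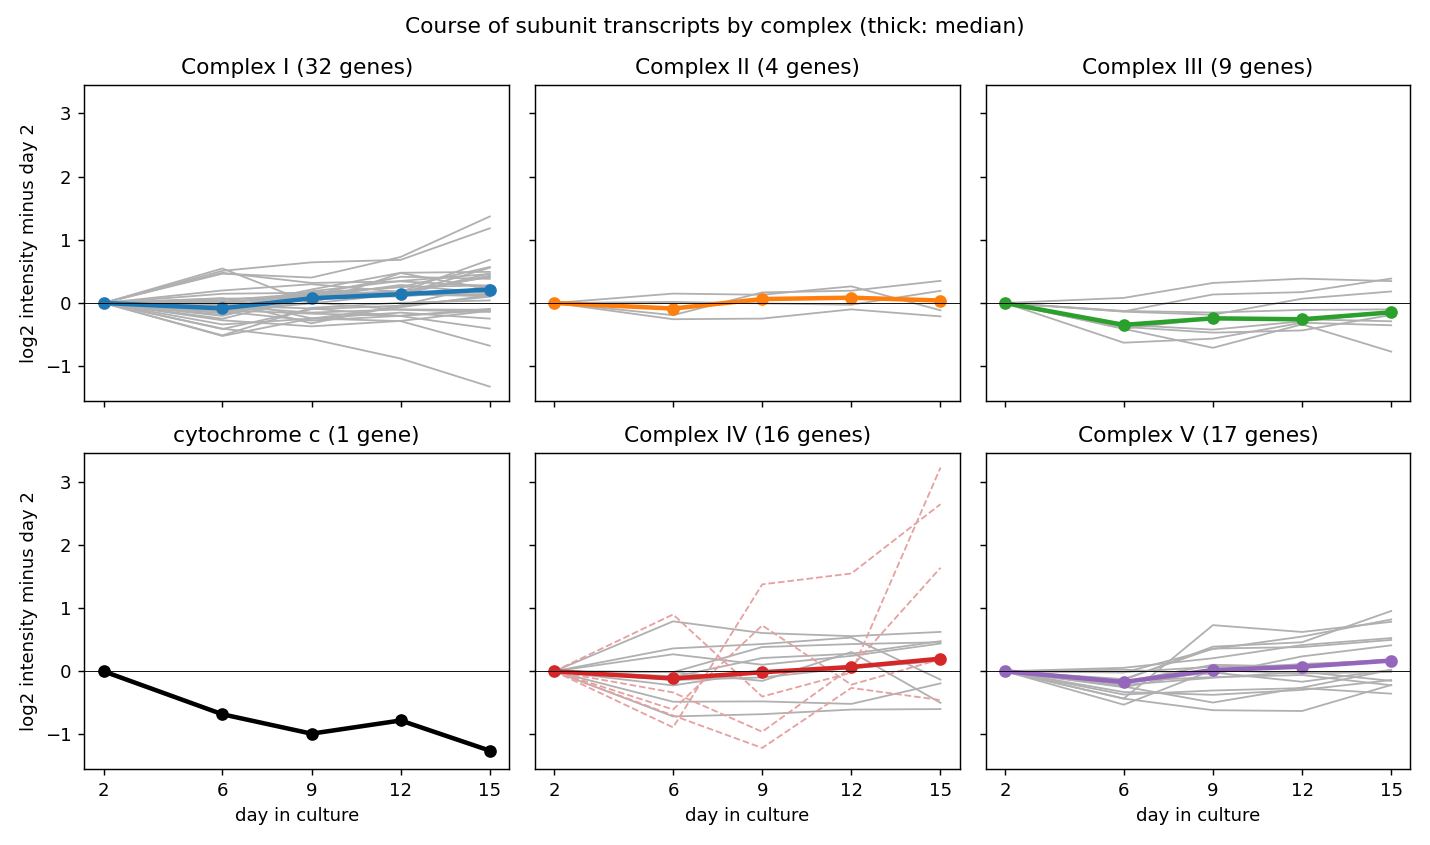
Log2 difference from day 2 over days 2, 6, 9, 12 and 15 for every measured member, in 1 panel each for complexes I to V and cytochrome c; thin grey lines are genes, dashed lines the complex IV tissue isoforms and thick lines the median. The medians lie between -0.35 and 0.21 in the 5 complexes, and that of complex III is below 0 on every day after day 2. Cycs runs below 0, and Cox4i2, Cox6b2 and Cox7a1 run above 0 on day 15.

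Genes that feed, build or regulate the chain were set beside the members, with counts and medians for day 15 against day 2 on the same scale. Their counts are read against all genes measured, of which 16.2% were 2-fold higher or more, 11.6% were 2-fold lower or more and 23.8% passed 1.5-fold in the lower direction. Of 15 measured tricarboxylic acid cycle genes, 0 were 2-fold higher and 1 (6.67%) was 2-fold lower. By any amount 13 of 15 were lower, against 49.7% of all genes, with a median log2 difference of -0.20. Suclg1, Ogdh, Idh3b, Sucla2 and Idh3g were lower by little, with differences between -0.08 and -0.13. Centring on the array median, which raised the median of all genes to 0.14, would bring these close to or above 0. The count of 13 thus depends on the scaling. Idh3a, a subunit of isocitrate dehydrogenase, had 7513, 3907, 3416, 4381 and 3416, or 2.20-fold lower. Mdh2, the mitochondrial malate dehydrogenase, was 1.84-fold lower, and Dlst, of the oxoglutarate dehydrogenase complex, 1.58-fold lower. Day 2 was the highest array for Idh3a and Mdh2, as for Cycs, Cyc1 and Cox5a.

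Assembly factors, which build the complexes but are not part of them, went in both directions: of 44 measured, 3 (6.82%) were 2-fold higher or more, 4 (9.09%) were 2-fold lower or more, and the median was -0.05. Both shares were below those of all genes. The 3 higher were Ndufaf1 and Sdhaf4, for complexes I and II, and Pet100, for complex IV. Ndufaf1 had 300.2, 378, 766, 748 and 1049, and Pet100 had 951, 1806, 2624, 2854 and 3249, both lowest on day 2 and highest on day 15. The lower ones were Ndufaf4, Sco1, Sco2 and Lrpprc. Ndufaf4, for complex I, had 3957, 1830, 1102, 1299 and 393, 10.1-fold lower on day 15. Sco1 and Sco2 deliver copper to complex IV, and Sco1 was at least 3.18-fold lower, with day 15 below the floor.

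Of 12 measured regulators of mitochondrial genes, 0 were 2-fold higher, 3 (25%) were 2-fold lower and 7 (58.3%) were at least 1.5-fold lower, with a median of -0.68. Nrf1, the factor that binds GCATGCGC, had 607, 355, 246, 164 and 206. Pprc1, a coactivator related to PGC-1, had 1160, 743, 485, 566 and 391, and Twnk, the helicase of mitochondrial DNA, had 514, 477, 497, 349 and 243. They were 2.95-fold, 2.97-fold and 2.11-fold lower on day 15. Ppargc1a, which encodes PGC-1 alpha, stayed between the floor and 216, and its relative Ppargc1b lay below the filter.

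The list for the response to low oxygen holds mitochondrial proteins and also the oxygen-sensing genes Hif1a, Egln1 and Egln3, which are not mitochondrial. On day 15, 7 of its 9 measured genes (77.8%) were at least 2-fold higher than on day 2 and 0 were 2-fold lower, with a median of 2.65, while the median on day 12 was 0.14. Cox4i2 belongs to this list as well as to the members. Lonp1 went the other way, with 1036, 1137, 532, 522 and 583, or 1.78-fold lower on day 15. Bnip3, a mitophagy receptor, had 2046, 3797, 2196, 3724 and 22077. Egln3, an oxygen-sensing prolyl hydroxylase, had 275, 128, 55.8, 154 and 2427. Both had day 15 far above every earlier array, as Cox4i2 and Ndufa4l2 did. The oxygen level of the cultures was not measured, and day 15 is 1 array, so that array and that day cannot be told apart.

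For 45 members a second probe set lay above the filter, and in 36 the direction from day 2 to day 15 was that of the brightest. In the 24 of these whose brightest probe set differed by at least 0.2 on the log2 scale, all 24 kept the direction. Among the members at least 2-fold apart between day 2 and day 15, only Cycs had more than 1 probe set. Ndufv3, Ndufa6, Ndufb1, Cox4i2, Cox6b2 and Cox7a1 could therefore not be checked in this way. The standard deviation between the log2 differences of a gene's probe sets was 0.37. In 15 of 79 members the brightest probe set was of a kind that can also match other transcripts, so processed pseudogenes and close copies could share signal there. Ndufv3, Ndufa6, Ndufb1, Cycs, Cox4i2, Cox6b2 and Cox7a1 were not among these 15.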

How the data were processed

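Total RNA from 1 sample per day was labelled with biotin and hybridised to 1 array per day. The authors deposited linear signal intensities per probe set; the submitters' processing notes name MAS5, without a version. Each array had a mean of 500 after trimming 2% at both ends. Such scaling cannot show a shift shared by most transcripts.

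Gene names came from the platform annotation, in which 34945 probe sets carried 1 gene symbol, 932 several and 9160 none, and 64 were controls. Symbols were updated through RefSeq (GRCm38.p6). Values below 73.1, the 40th percentile, were floored and log2 was taken. The brightest probe set stood for its gene, and 11075 of 18193 genes passed a mean intensity of 105.9. Days were compared at 2-fold and 1.5-fold without a test. The linear trend used limma 3.58.1 in R 4.3.3 (two-sided, 3 residual and 2.83 prior degrees of freedom) and was checked on simulated data. Of 50 simulated trends with a total change of 1 log2 unit, it recovered 2. Of 50 each at 2, 3 and 4 log2 units it recovered 20, 26 and 39, and 6 of its 93 calls were false. Trends of about 1 log2 unit were therefore mostly missed. The number of arrays limits the precision.

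The members, the lists and the alternatives were chosen with earlier results of these data known, and the grouping by role was made after the values were seen. Members described with all values were those at least 2-fold apart, the extremes of each complex, those varying at least 2.5-fold over the arrays and the isoform pairs, with the 3 largest differences of each other list; further members were named after their values were seen. Alternatives were 2 other scalings, other floors or a pseudocount, the mean of all probe sets, other filters and other days.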

Additional observations from a re-analysis of the deposited data

How the results depend on the processing

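Centring each array on its median raised the median log2 difference of day 15 against day 2 to 0.31 over the members, and to 0.35, 0.18, -0.01, 0.34 and 0.31 for complexes I, II, III, IV and V, while the median of all genes became 0.14. The count of members at least 2-fold higher, 5 of 79, became 3 with day 15 against day 9, with days 12 and 15 pooled against days 2 and 6, and with a filter at the 70th percentile, which tests fewer genes. The count at least 2-fold lower, 2 of 79, became 0 against day 6, against day 9 and with the pooled days. These alternatives compare other arrays, and the cause of the change was not tested further. Leaving out probe sets ending in _s_at or _x_at, chosen after seeing the data, gave 7 higher, 2 lower and a median of 0.16 over 75 members. The added higher members, Ndufa12 and Atp5c1, then rested on dim probe sets with mean intensities of 157.5 and 165.3. By their brightest probe sets Ndufa12 was 1.09-fold lower and Atp5c1 1.14-fold higher. The trend count was 0 under every alternative run and without each array in turn (range 0 to 0). Log2 differences were recomputed for 27 genes: those at least 2-fold apart, the extremes of each complex, those varying at least 2.5-fold and the isoform pairs. Ndufs8, Cox6c, Cox7c, Atp5mpl and Atp5md were not among these. Over the alternatives, 113 of 319 recomputed differences moved by at least 0.1, and 17 changed sign, in 10 genes. Of these sign changes 8 came with day 15 against day 6, 6 against day 9, 2 with the pooled days and 1, in Ndufa4, with centring. Against day 6 the difference of Cox5a was 0.12, of Atp5b 0.01, of Atp5g2 0.22 and of Cox7a2l -0.17, in place of -0.60, -0.35, -0.22 and 0.62 against day 2. None of the sign changes was in a gene at least 2-fold apart between day 15 and day 2. With the pooled days the log2 difference was 1.15 for Cox4i2 and 1.02 for Cox7a1. No paired analysis was possible because each day has 1 array and the days share a single replicate number. The precision is limited by 5 arrays and, for Cox4i2 and Cox7a1, by signal near the floor on early days.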
